A study of Homo sapiens with 6 samples.

Results

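The bins described here are stretches of 100 Kb that lay in the inactive compartment B in all 6 T47D libraries and whose B score was weaker in tamoxifen-resistant cells than in the parental cells, without a change to compartment A. They were chosen by the scores themselves: an autosomal bin was taken when its score was below 0 in every library and when its score in the resistant library exceeded the mean of the 5 parental scores by more than 0.002. Scores are small numbers, so they are given below multiplied by 1000, and the threshold becomes 2. The rule took 1854 of the 11648 autosomal bins that were B in all 6 libraries (15.9%, 95% Wilson interval 15.3 to 16.6%). This interval is too narrow, since neighbouring bins are not independent. These 11648 bins were part of 26484 autosomal bins with a score in all 6 libraries, 28823 autosomal bins and 30376 bins in the series as a whole. A B bin with a parental mean above -2 could not pass without becoming A, and among the 10175 B bins with a parental mean below -2 the share that passed was 18.2%. The members are called weakened B bins here. The other B bins are called deepened where the difference was below -2 (1982 bins, 17.0%) and steady where it lay between the 2 limits (7812 bins).

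T47D cells are an established line of human breast cancer that expresses the estrogen receptor. Tethered chromatin conformation capture (TCC), a form of Hi-C with ligation on a solid surface, was applied to parental T47D cells after 72 h of hormone starvation (T0), to parental cells given 100 nM estradiol (E2) after that starvation and collected at 1, 4, 16 and 24 h (T1, T4, T16 and T24), and to tamoxifen-resistant T47D cells (TamR). The labels give the agent of TamR as untreated, while the methods of the study place TamR cells in hormone-stripped medium with 100 nM tamoxifen, so the sources differ on tamoxifen exposure, and whether the line is a single clone is not given in the sources used here. There was 1 library per condition, so no difference between TamR and the parental cells has a replicate check, no test was made, and the parental cells differ from TamR in culture medium as well as in resistance, which cannot be told apart.

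In Hi-C data, chromosomes divide into compartment A, which holds most active genes and open chromatin, and compartment B, which holds gene-poor, late-replicating and silent chromatin, much of it at the nuclear lamina. Regions of one compartment contact each other more than regions of the other, and the first eigenvector of the contact matrix gives each bin a position on this axis, positive for A and negative for B. A score that moves toward 0 while staying negative belongs to a bin whose contacts are less strongly those of B, and compartment B in breast epithelial cells holds many genes that are used in neurons, muscle or the olfactory epithelium.

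The promoters below belong to the 4 genes that start in the weakened bins with the largest differences, and to OR6A2, one of the olfactory receptor genes that lead the largest gene group among the members. They are shown because the members' promoters held few CpG dinucleotides. Each runs 5′ to 3′ on the gene's strand in GRCh37, from 250 bases before to 50 bases after the GENCODE start, and CpG dinucleotides are in capitals. TMTC1 lies at chr12:29937643-29937942 on the minus strand, CYYR1 at chr21:27945556-27945855 on the minus strand, RHOJ at chr14:63670582-63670881 on the plus strand, PCSK2 at chr20:17206502-17206801 on the plus strand and OR6A2 at chr11:6820871-6821170 on the minus strand.
TMTC1: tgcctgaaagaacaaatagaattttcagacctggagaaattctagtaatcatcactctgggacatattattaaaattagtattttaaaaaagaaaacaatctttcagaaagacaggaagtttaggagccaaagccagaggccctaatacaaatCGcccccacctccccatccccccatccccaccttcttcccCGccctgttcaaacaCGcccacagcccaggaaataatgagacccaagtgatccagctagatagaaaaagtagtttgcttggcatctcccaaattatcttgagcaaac
CYYR1: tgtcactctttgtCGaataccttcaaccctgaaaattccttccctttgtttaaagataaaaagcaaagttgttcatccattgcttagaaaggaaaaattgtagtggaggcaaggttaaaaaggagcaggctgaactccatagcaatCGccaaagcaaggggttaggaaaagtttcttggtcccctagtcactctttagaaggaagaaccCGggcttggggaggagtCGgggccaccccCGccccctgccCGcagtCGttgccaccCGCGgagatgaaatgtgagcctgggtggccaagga
RHOJ: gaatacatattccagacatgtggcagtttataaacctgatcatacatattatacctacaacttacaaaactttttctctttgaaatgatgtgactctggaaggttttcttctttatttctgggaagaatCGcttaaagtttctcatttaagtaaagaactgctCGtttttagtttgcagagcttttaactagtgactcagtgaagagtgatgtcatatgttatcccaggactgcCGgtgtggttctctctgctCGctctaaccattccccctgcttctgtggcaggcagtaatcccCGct
PCSK2: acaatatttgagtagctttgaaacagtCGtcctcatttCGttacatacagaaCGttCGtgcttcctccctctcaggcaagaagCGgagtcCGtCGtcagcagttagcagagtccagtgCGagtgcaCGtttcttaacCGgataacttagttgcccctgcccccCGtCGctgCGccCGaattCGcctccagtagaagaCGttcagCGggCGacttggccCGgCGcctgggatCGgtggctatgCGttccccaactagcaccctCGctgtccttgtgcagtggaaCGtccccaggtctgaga
OR6A2: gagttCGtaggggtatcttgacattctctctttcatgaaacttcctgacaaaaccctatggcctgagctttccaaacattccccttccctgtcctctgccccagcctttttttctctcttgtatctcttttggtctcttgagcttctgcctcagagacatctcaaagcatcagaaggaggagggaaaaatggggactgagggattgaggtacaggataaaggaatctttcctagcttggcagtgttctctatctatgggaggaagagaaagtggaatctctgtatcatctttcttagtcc
The TMTC1 promoter held 3 CpG dinucleotides, that of CYYR1 9, that of RHOJ 5, that of OR6A2 1 and that of PCSK2 24. PCSK2 was therefore the exception among these 5, with an observed-over-expected CpG ratio of 1.00 against 0.236 in TMTC1.

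The weakened bins were among the deeper B bins of the parental cells and among the shallower ones in TamR. Their median score was -6.47 at T0, -6.33 at T1, -6.50 at T4, -6.45 at T16, -6.14 at T24 and -2.56 in TamR. The middle 50% of the bins lay between -7.38 and -5.22 at T0 and between -3.95 and -1.20 in TamR, so these ranges did not overlap. These values follow from the rule and are a description. The median difference was 3.18 (quartiles 2.49 and 4.19, largest 8.29), and the median bin had lost 57.4% of its parental score. The difference exceeded 4 in 549 bins, and in 470 bins it was no more than 2.5. In 384 bins (20.7%) the TamR score was above -1, close to the border with A. The TamR score lay above all 5 parental scores in 1851 of the 1854 bins and above the highest of them by more than 2 in 1366. The median SD over the 5 parental libraries, which are 5 conditions and not replicates, was 0.380 in the weakened bins and 0.387 in the steady ones.

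**Figure D1:**
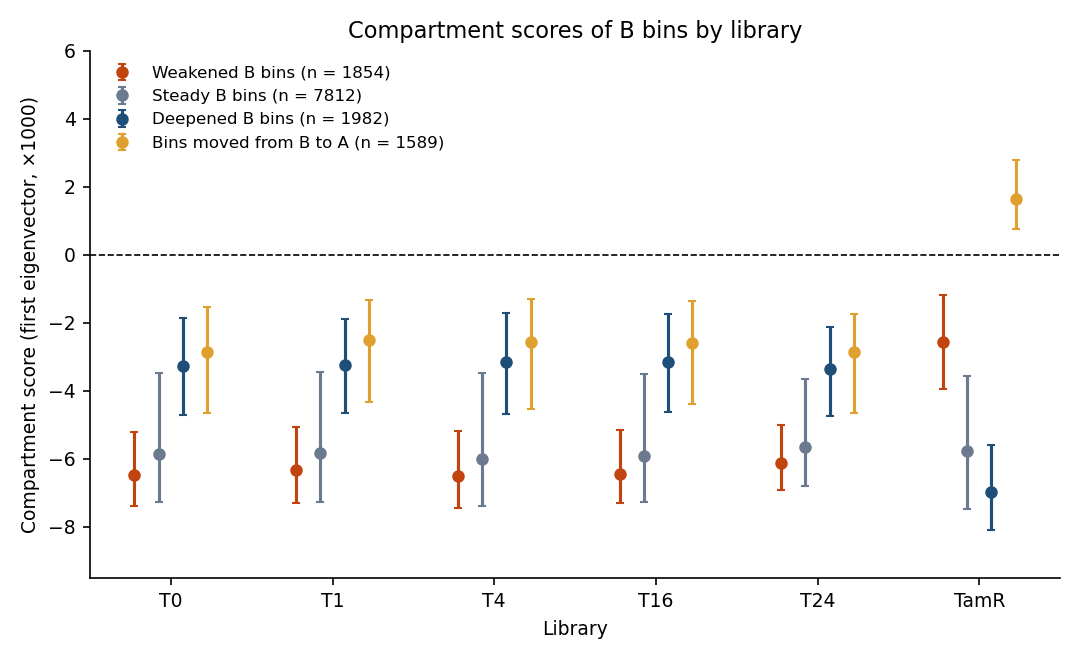
Median compartment score (first eigenvector, multiplied by 1000) of each class of bins in each library, with bars from the lower to the upper quartile over bins. The weakened B bins sit at medians of -6.50 to -6.14 in the 5 parental libraries and at -2.56 in TamR, below 0 throughout by the rule, while bins moved from B to A cross 0.

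The 3 bins just inside the threshold had differences of 2.00004 on chromosome 9, 2.00019 on chromosome 14 and 2.0029 on chromosome 6. The 3 just outside had 1.99873 on chromosome 8, 1.9987 on chromosome 14 and 1.99848 on chromosome 2. No protein-coding gene started in any of these 6 bins. Scores are scaled within a library, and a straight line of TamR on the parental mean had a slope of 0.905 over all scored autosomal bins and 0.624 over the B bins, so the size of a difference depends in part on this scale. In 5 equal strata of the parental mean, from the deepest to the shallowest, the median difference of all B bins was 0.08, 0.13, 0.17, -0.71 and -1.07. In the same order weakened bins made up 19.7%, 23.6%, 21.97%, 12.9% and 1.42% of the bins. Most bins of the shallowest stratum could not pass. With a threshold of 1 in place of 2 the rule took 3125 bins, and with a threshold of 3 it took 1023.

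The E2 time course moved the weakened bins little. Relative to T0, their median change was 0.11 after 1 h, -0.04 after 4 h, 0.01 after 16 h and 0.30 after 24 h. At T24 41 weakened bins (2.21%) had risen by more than 2, where 231 of all B bins (1.98%) had, and 3 (0.162%) had fallen by more than 2, where 78 of all B bins (0.670%) had. The weakened bins that had risen by more than 2 numbered 2 after 1 h, 0 after 4 h and 5 after 16 h, where 0.155%, 0.120% and 0.300% of all B bins had. Those that had fallen by more than 2 numbered 0, 1 and 0, where 0.00859%, 0.0601% and 0.0859% had. The share that rose at T24 was near that of B bins in general and the share that fell was below it, and the median shift at T24 was 0.17 in steady and -0.14 in deepened bins. The largest rise at T24 was in chr14:19100001-19200000, which overlaps no protein-coding gene, with -8.37 at T0, -4.95 at T1, -7.11 at T4, -6.52 at T16, -3.72 at T24 and -0.502 in TamR. The next largest was in chr7:63800001-63900000, which overlaps the zinc finger gene ZNF736, with -6.59 at T0, -5.04 at T1, -6.13 at T4, -5.29 at T16, -2.56 at T24 and -2.13 in TamR. In this second bin the T24 and TamR scores were close together, and T0, T1, T4 and T16 lay at or below -5.04. In both bins the T1 score lay above those at T4 and T16, so the scores did not rise in the order of time. Each time has 1 library, and the stability of these scores was not tested.

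Weakened bins were found on all 22 autosomes but unevenly. Chromosome 17 stood apart, with 72 of its 151 B bins weakened (47.7%) and 0 deepened. The next highest shares were 25% on chromosome 14, 24.5% on chromosome 16 and 23.5% on chromosome 10. Chromosome 3 held the most members, 208 bins or 20.8% of its B bins. The lowest shares among chromosomes with over 100 B bins were 7.63% on chromosome 8, 8.37% on chromosome 1 and 9.41% on chromosome 2. Over the 17p arm 47 of 57 B bins (82.5%) were weakened, over 18p 41.5% and over 20p 38.1%, against 2.35% over 20q. The median difference of all B bins was 2.80 on 17p, so most B bins of that arm moved together, and with differences centred on the median of each arm 3 of its 57 bins passed. The means of the arms accounted for 5.53% of the variance of the difference over all B bins, and the means of the chromosomes for 2.73%.

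**Figure D2:**
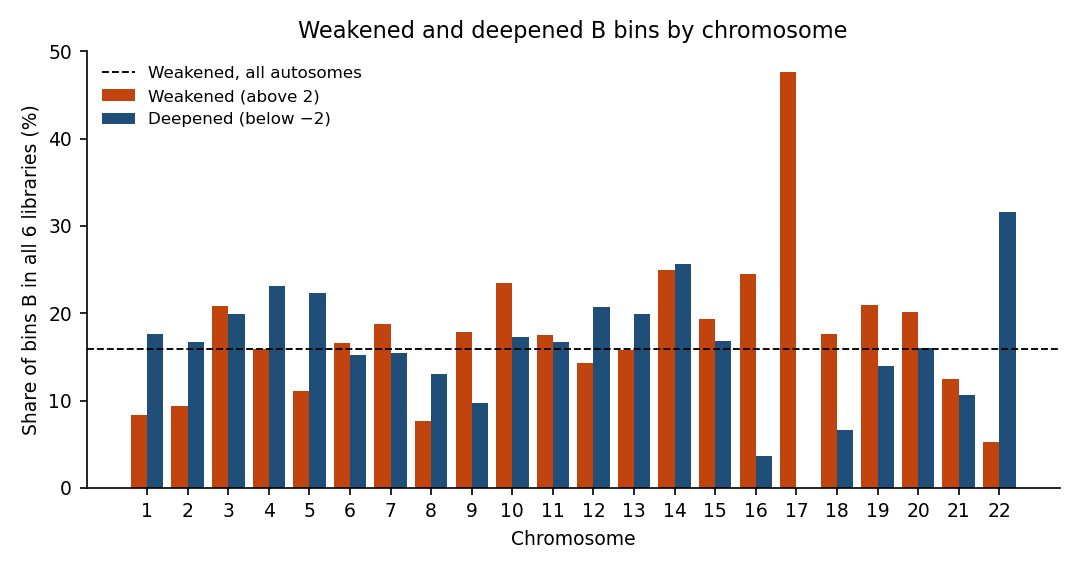
Share of the bins that were B in all 6 libraries (%) that were weakened (TamR minus parental mean above 2) or deepened (below -2), by chromosome, with a dashed line at the weakened share over all autosomes, 15.9%. Chromosome 17 has 47.7% weakened and no deepened bins, and chromosome 22, with 19 B bins, has 1 weakened bin.

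On 17p the members formed 5 runs. The run chr17:10200001-10500000 held the skeletal muscle myosin heavy chain genes MYH13, MYH8, MYH4, MYH1 and MYH2, had a mean parental score of -5.99 and a mean TamR score of -0.773, and had bins moved from B to A on both sides. The run chr17:10700001-11900000 held TMEM238L, PIRT, SHISA6 and the dynein heavy chain gene DNAH9, with means of -6.55 and -3.28. The run chr17:12000001-13900000 held MYOCD, a cofactor of smooth and cardiac muscle genes, ARHGAP44, the tRNA-processing nuclease gene ELAC2 and the heparan sulfate sulfotransferase gene HS3ST3A1, with means of -5.32 and -2.40. A run of 8 bins at chr17:14300001-15100000 held no protein-coding gene start, and a run of 5 bins at chr17:21700001-22200000 held MTRNR2L1 alone.

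Weakened bins lay side by side more often than singly. They formed 477 runs of adjacent bins, of which 179 were single bins, and 133 runs of at least 5 bins held 1232 of the 1854 bins (66.5%). The 51 runs of at least 10 bins held 685. The median run was 200 Kb and the longest 3200 Kb. Of the 477 runs, 278 (58.3%) held no protein-coding gene start. Steady B bins bordered 667 of the run ends (69.9%) and bins moved from B to A bordered 244 (25.6%), while 5 run ends met a bin that was A in all 6 libraries. Neighbouring bins are not independent, and no run counts of steady or deepened bins are given beside these. The runs are therefore a description and not a trait shown to be particular to weakened bins.

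The longest run was chr3:75800001-79000000, 32 bins that hold the start of ZNF717 and the whole of ROBO2, a receptor for the axon guidance ligand Slit, and overlap its relative ROBO1. Its mean score was -7.75 at T0, -7.93 at T1, -7.83 at T4, -7.59 at T16, -7.17 at T24 and -3.58 in TamR. The 5 parental means lay close together and TamR lay above them all. The bin of the ROBO2 start had scores of -8.26 at T0, -8.23 at T1, -7.90 at T4, -8.21 at T16, -7.74 at T24 and -3.84 in TamR. All 18 bins of the ROBO2 body, 1743 Kb long, were weakened.

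The second longest run, chr10:66500001-68700000, held 22 bins, the start of the postsynaptic adhesion gene LRRTM3 and part of CTNNA3, an alpha-catenin of cell junctions. Its mean was -6.57 over the parental libraries and -2.94 in TamR. The third, chr4:59100001-61100000, overlapped no protein-coding gene in its 20 bins and had means of -7.23 and -3.69. The runs chr12:43700001-45500000 and chr10:1300001-3100000, each of 18 bins, were bordered on both sides by bins moved from B to A. The first of these held ADAMTS20, a secreted metalloproteinase, PUS7L, IRAK4, a kinase of Toll-like receptor signalling, the actin regulator TWF1, TMEM117, NELL2 and DBX2, with means of -6.62 and -3.34. The second held the start of ADARB2, a brain relative of the RNA-editing enzymes, with means of -7.38 and -4.49. The parental scores within the first were uneven: the bin of the PUS7L and IRAK4 starts had a parental mean of -3.64 and a TamR score of -0.520, and that of ADAMTS20 -7.09 and -3.13.

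The largest mean differences among runs of at least 15 bins were on chromosomes 14, 13 and 12. The run chr14:62300001-63800000, 15 bins with the potassium channel gene KCNH5 and RHOJ, a small GTPase gene of endothelial cells, had a mean of -7.42 in the parental libraries and -1.18 in TamR, and a bin moved from B to A lay on each side. The run chr13:93300001-95000000, 17 bins with most of the glypican gene GPC6, had means of -7.53 and -1.62 and steady B bins on both sides. The run chr12:29100001-30800000, 17 bins with FAR2, ERGIC2, OVCH1 and TMTC1, had means of -7.70 and -1.83. In these 3 runs TamR stayed below 0 across the run, and its mean in each was above those of the 6 longest runs.

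**Figure D3:**
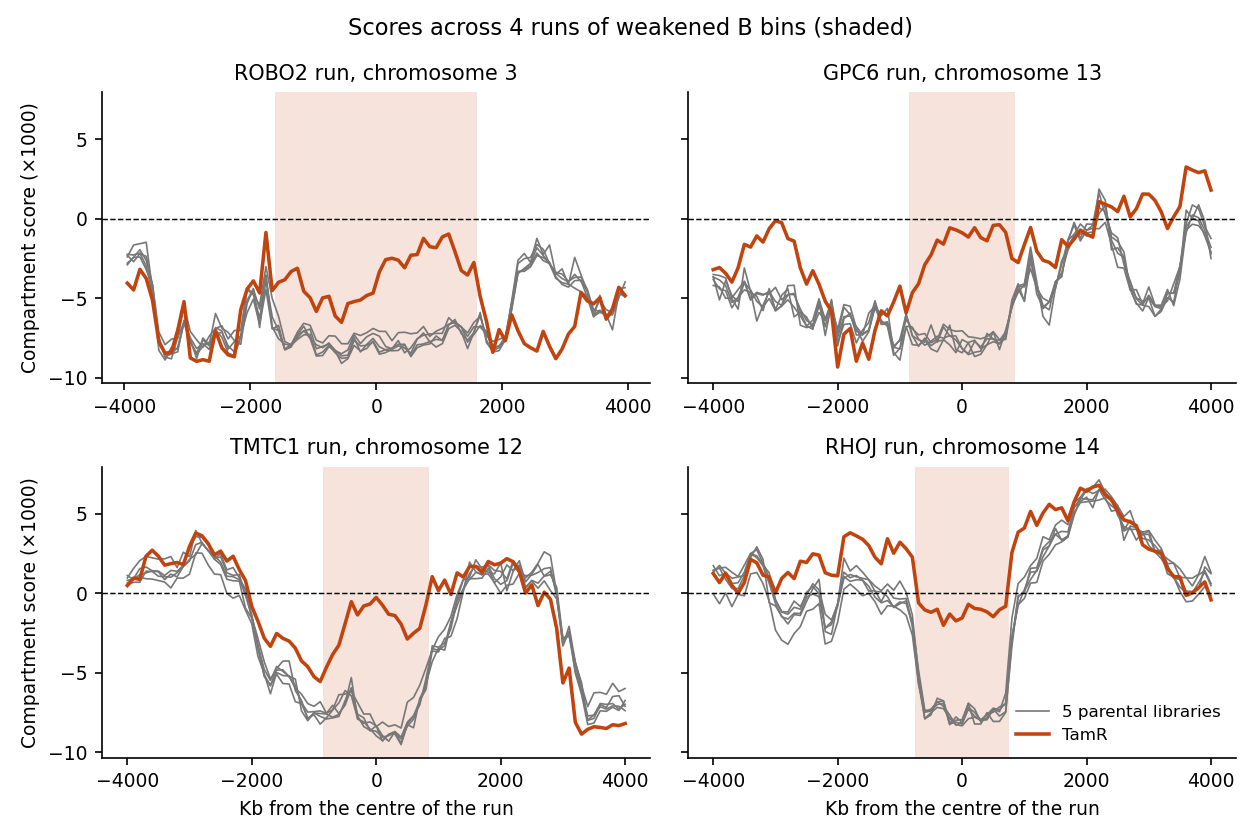
Compartment scores (multiplied by 1000) of the 5 parental libraries (grey lines) and of TamR (red line) against the distance in Kb from the centre of each of 4 runs of weakened bins, which are shaded. Within the shading TamR stays between the grey lines and 0, with run means of -3.58 for ROBO2, -1.62 for GPC6, -1.83 for TMTC1 and -1.18 for RHOJ.

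The single bins with the largest differences lay in some of these runs. The bin of the TMTC1 start, chr12:29900001-30000000, had -8.97 at T0, -8.34 at T1, -8.69 at T4, -8.34 at T16, -8.40 at T24 and -0.261 in TamR, a difference of 8.29. TMTC1 encodes a mannosyltransferase of the endoplasmic reticulum. The bin of the CYYR1 start, chr21:27900001-28000000, had -8.70, -8.69, -9.61, -9.005 and -7.41 at T0, T1, T4, T16 and T24 and -0.640 in TamR. The RHOJ start had -7.46, -7.35, -8.06, -7.73 and -7.15 in the same order and -1.04 in TamR. PCSK2, a protease that matures prohormones in neuroendocrine cells, had -6.96, -6.60, -7.45, -7.38 and -6.44, and -0.513 in TamR. In each of these 4 bins the TamR score was above the highest parental score by more than the whole range of the parental scores. This follows from their choice as bins with the largest differences and is a description. The other bins of this kind with a gene start belonged to the transcription factor genes BNC2 (difference 6.38) and ZBTB18 (6.35), OSTN, which encodes a secreted peptide of muscle and bone (6.36), the urea transporter gene SLC14A2 (6.27), the unnamed gene ENSG00000289503 (6.25) and MYH8 with MYH4 (6.24).

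Weakened bins lay close to bins that had moved from B to A in TamR. Switched bins and members were both called from a rise of TamR over the parental scores, and such rises extend over neighbouring bins. The nearness, and the reverse order toward bins moved from A to B, therefore follow in part from the calls and are a description. Bins B in all 5 parental libraries and A in TamR numbered 1589, or 12.0% of the bins that were B in all parental libraries and scored in TamR. The median gap from a weakened bin to the nearest of them was 900 Kb, against 4300 Kb for steady B bins and 5600 Kb for deepened ones. Within 500 Kb of a switched bin lay 770 weakened bins (41.5%, 95% Wilson interval 39.3 to 43.8%), 574 steady bins (7.35%) and 21 deepened bins (1.06%). Directly next to one lay 215 weakened bins (11.6%), 125 steady bins (1.60%) and 0 of the 1982 deepened bins (Wilson upper limit 0.193%). Toward bins moved from A to B the order was the reverse, with 2.32% of weakened, 7.94% of steady and 19.8% of deepened bins within 500 Kb. To bins that were A in all 6 libraries the shares within 500 Kb were 14.99%, 13.6% and 7.77%. Intervals over bins are too narrow, since neighbouring bins are not independent.

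The nearness to switched bins, which follows in part from the calls, was present at every depth of B. From the deepest to the shallowest stratum of the parental mean, 26.5%, 36.8%, 46.1%, 61.7% and 75.8% of the weakened bins lay within 500 Kb of a switched bin, against 1.66%, 1.46%, 4.29%, 6.75% and 14.1% of the other B bins. The 770 weakened bins near a switched bin had a median score of -5.86 in the parental libraries and -1.43 in TamR, and the 1084 farther away had -6.72 and -3.30. Their median differences were 3.66 and 2.895. Thus the majority of weakened bins, 1084 of 1854, lay beyond 500 Kb of any switched bin, and these were the deeper ones in both cell lines.

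**Figure D4:**
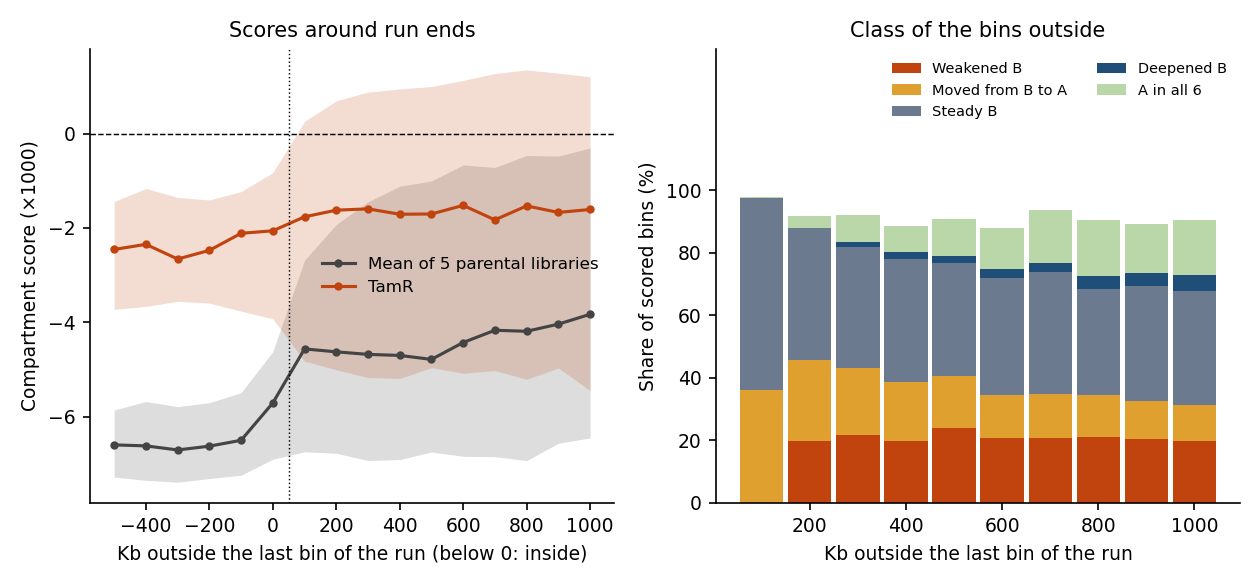
Left, median score (multiplied by 1000, shading from the lower to the upper quartile) of the mean of the 5 parental libraries and of TamR against the distance in Kb from the last bin of runs of at least 5 weakened bins (266 ends in 133 runs, values below 0 inside). Right, the class of the bins outside in % of the scored bins at each distance (264 at the first and 258 at the last), with the gap to 100% made up of mixed bins and bins moved from A to B. Of the first bins outside, 36.0% had moved from B to A and 61.4% were steady B.

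Taking adjacent bins that were B in all 5 parental libraries as a parental B domain gave 689 domains, of which 221 held a weakened bin. Their median length was 3400 Kb, against 400 Kb for domains without one, and 84.2% of the weakened bins lay in domains over 2 Mb. A longer domain has more bins that can be weakened, so the contrast in length follows in part from the number of bins. The share of the other B bins in domains over 2 Mb was not worked out, so the 84.2% has no background beside it. A bin moved from B to A was present in 135 of the 221 domains, a deepened bin in 88 and both in 40. These counts have no background from the domains without a weakened bin beside them. Longer domains also have more bins that can fall in any class. In 37 domains every bin was either weakened or moved to A, and in 2 of these every bin was weakened. The longest of the 37 was chr2:65800001-69600000, from MEIS1 to CNRIP1 and beyond, with 30 bins moved to A and 8 weakened. In chr3:189700001-193400000, which holds P3H2, CLDN1, CLDN16, IL1RAP, OSTN and CCDC50, 29 bins moved to A and 8 were weakened. In chr7:69200001-72200000, with the glycosyltransferase gene GALNT17 and the calcium-binding protein gene CALN1, 16 moved to A and 14 were weakened. These domains were chosen because weakened and switched bins together took up the whole of each, so this is not a separate result.

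The weakened bins were slightly richer in GC than other B bins. Their median GC content was 38.0%, against 37.4% in steady and 36.4% in deepened bins. The 770 weakened bins within 500 Kb of a bin moved from B to A had a median of 38.6%. The 1084 farther away had 37.3%, which was near that of steady bins. Weakened bins had the higher median on 16 of the 20 chromosomes with at least 20 bins of each kind. The excess over other B bins was 0.35, 0.86, 1.46, 1.75 and 1.19 percentage points from the deepest to the shallowest stratum of the parental mean. The number of HindIII sites, the enzyme used in TCC, had a median of 32 per bin in each of the 3 classes. The median distance to the centromere was 27.6 Mb for weakened, 35.1 Mb for steady and 49.4 Mb for deepened bins, but within chromosomes weakened bins had the longer median distance on 9 of 20 and the shorter on 11.

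The number of genes differed little. Protein-coding genes started in the weakened bins 501 times, 0.270 per bin, against 0.252 per other B bin. A start was present in 18.3% of both weakened and other B bins, and 50.6% of weakened and 53.6% of other B bins overlapped no protein-coding gene. The weakened bins had the lower number of starts per bin on 15 of 20 chromosomes, and without olfactory receptor genes the values were 0.215 and 0.235, so that the direction of the small difference was reversed. Against only the other B bins with a parental mean below -2, weakened bins had more starts, 0.270 against 0.215, and 0.215 against 0.195 without olfactory receptors. Within 500 Kb of a bin moved from B to A weakened bins had 0.329 starts per bin, and farther away 0.229. Long noncoding RNA genes started 0.450 times per weakened bin and 0.445 times per steady bin. The protein-coding genes that start in weakened bins had a median length of 28.9 Kb, against 46.1 Kb in steady and 65.5 Kb in deepened bins. Olfactory receptor genes were 102 of the 501 starts in weakened bins and 277 of the 2973 in bins B in all 6 libraries. They are short, such as OR10A5 with 0.954 Kb and OR10A2 with 11.7 Kb. Lengths without them were not compared, so the contrast may rest in part on this group.

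CpG-rich promoters, here those with an observed-over-expected CpG ratio of at least 0.6 over 300 bases, were fewer among the weakened bins. They made up 180 of 501 promoters (35.9%, 95% Wilson interval 31.8 to 40.2%), against 50.8% in steady bins, 49.2% in deepened bins, 50.4% in bins moved from B to A and 61.7% in bins that were A in all 6 libraries. Olfactory receptor promoters, like that of OR6A2 above, held a part of this: without them the share was 44.6% in weakened and 54.3% in other B bins. Limited to the B bins with a parental mean below -2, the latter share was 50.1% (47.7 to 52.5%), and its interval overlapped that of the weakened bins (39.8 to 49.5%). Neighbouring promoters are not independent.

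Of the protein-coding genes that start in bins B in all 6 libraries, 501 of 2973 (16.9%) started in a weakened bin and 321 (10.8%) in a deepened bin. The 16.9% counts genes in B bins that could not pass as well. With the limit to a parental mean below -2, 501 promoters lay in weakened and 1792 in other B bins. Without olfactory receptors these numbers were 399 and 1623. The shares of the gene groups below were not worked out with this limit. Olfactory receptor genes, which encode odorant receptors, had the highest share of the groups examined, with 102 of 277 (36.8%) in weakened and 5 in deepened bins. Genes of one cluster share bins and are not independent: the 277 genes lay in 102 bins, of which 39 (38.2%) were weakened. When starts up to 1 Mb apart were joined, the receptor genes of the autosomes formed 37 clusters, of which 14 had a gene in a bin B in all 6 libraries and 7 of these held a weakened bin, and 76 of the 102 genes were on chromosome 11. All 24 olfactory receptor genes of the chromosome 11 cluster from OR6X1 to OR8A1, near chr11:123625226-124436556, started in weakened bins. In the cluster from OR52B4 to OR10A3, near chr11:4389616-7963255, 35 of 69 did, and in that from OR9Q1 to OR10V1 15 of 21. By contrast 2 of 50 did in the large cluster from OR4A16 to OR5AK2 on the same chromosome, and 0 of 17 in the cluster from OR10T2 to OR10J5 on chromosome 1. The median score of the 39 bins was -6.94 at T0, -6.67 after 1 h of E2, -7.10 after 4 h, -6.93 after 16 h, -6.23 after 24 h and -3.24 in TamR. The weakening was thus spread over whole clusters in some places and absent from others.

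The olfactory receptor genes with the largest differences, OR6A2, OR10A5, OR10A2 and OR10A4, share a single bin that had -6.99 at T0, -7.13 at T1, -7.86 at T4, -7.25 at T16, -6.69 at T24 and -1.11 in TamR. The zinc finger genes ZNF215 and ZNF214 lie in the same run, chr11:6700001-7500000, with differences of 5.83 and 4.95. The run with the most gene starts, chr11:5500001-6300000, held 37, and 33 of these genes lay wholly within it. Its means were -5.93 in the parental libraries and -3.12 in TamR. Beside olfactory receptors it held the antiviral TRIM genes TRIM5, TRIM6, TRIM22 and TRIM34. The annotated starts of the globin genes HBG2 and HBE1 were also counted. A start alone does not place the body of these globin genes in the run. The run chr9:21200001-21800000 held 13 starts, which apart from KLHL9 were type I interferon genes such as IFNA1, IFNA2 and IFNE, with means of -4.97 and -1.93. The run chr11:59600001-60000000 held members of the OOSP and MS4A families, with means of -5.05 and -0.730, and lay between bins moved from B to A. These gene-rich runs were chosen for their number of starts after the values were seen.

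**Figure D5:**
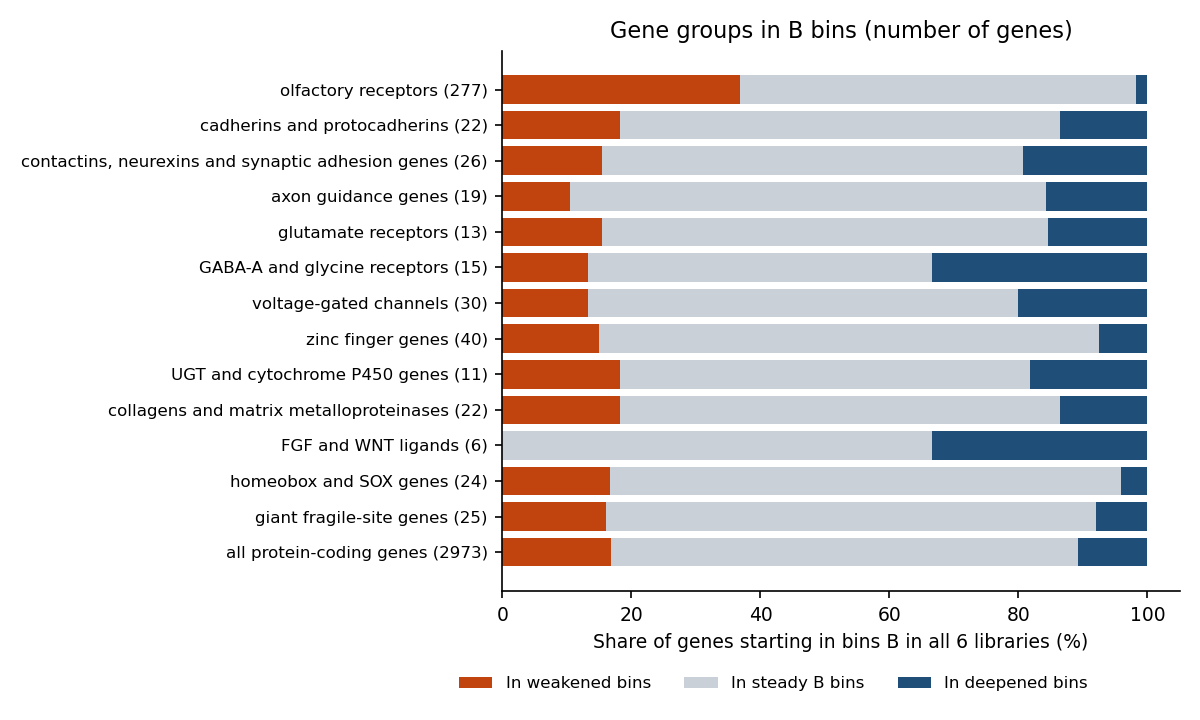
Share of the genes of each group that start in weakened (red), steady (grey) or deepened (blue) bins, in % of the genes that start in bins B in all 6 libraries, whose number is given after the name of the group. The olfactory receptor bar reaches 36.8% weakened, against 16.9% for all protein-coding genes, and the bars of the other groups lie between 0 and 18.2%. All shares count genes in B bins that could not pass as well. Groups with fewer than 6 such genes are not drawn.

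The groups of genes known from neurons had shares near that of all genes, 16.9%, which counts B bins that could not pass as well. Of the cadherins and protocadherins, adhesion molecules that need calcium, 4 of 22 started in weakened bins: CDH8 (difference 4.78), CDH13 (4.64), CDH10 (4.01) and PCDH7 (2.52). Of the synaptic adhesion genes 4 of 26 did, namely NRXN3 (3.49), NLGN1 (3.24), LRRTM3 (2.83) and CNTNAP4 (2.67), and of the axon guidance genes 2 of 19, ROBO2 (4.22) and EPHB1 (3.20). The glutamate receptor genes gave 2 of 13, among them GRIN2A (2.18), and the GABA-A and glycine receptor genes 2 of 15, GABRR3 (3.46) and GLRB (3.29). The ion channel genes gave 4 of 30, with KCNH5 at 5.996, KCNK2 at 2.60, KCNS3 at 2.25 and KCNJ2 at 2.13. These counts are small and were not tested against the background.

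The other groups gave similar shares. Zinc finger genes gave 6 of 40, with ZNF518B (3.38) and ZNF717 (2.895) after the pair on chromosome 11. Of the collagens and matrix proteases 4 of 22 started in weakened bins, ADAMTS20 (3.96), COL24A1 (2.97), ADAMTS9 (2.95) and COL8A1 (2.18). The homeobox and SOX transcription factor genes gave 4 of 24, with MEIS2 at 5.69, SOX11 at 3.57, IRX1 at 3.45 and SOX21 at 2.29. The MEIS2 start had -6.58 at T0, -6.89 at T1, -7.005 at T4, -7.08 at T16, -6.50 at T24 and -1.12 in TamR, and all 3 bins of its body were weakened. Of the UGT and cytochrome P450 genes 2 of 11 did, CYP39A1 (3.85) and CYP7B1 (2.72), both of which hydroxylate oxysterols. No FGF or WNT ligand gene of 6 did. Only 1 of 46 estrogen response and luminal genes started in a bin that was B in all 6 libraries, and it was not in a weakened bin. The study names SOX4, GPRC5C and PRC1 in survival plots, and GREB1 and TFF1 as targets in ChIP-qPCR. None of these started in a bin that was B in all 6 libraries. Other genes that the study names, such as those of its 3C-qPCR loops, were not in this list.

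Several very long genes were weakened over much of their body. Of 310 protein-coding genes over 500 Kb, 66 overlapped a weakened bin, 29 overlapped at least 5 and 28 had weakened bins over at least 50% of their bins. Long genes as a class were near the background: of the 1805 B bins overlapped by such genes 16.5% were weakened, against 15.8% of the other B bins, and genes over 500 Kb made up 4.99% of the starts in weakened bins, 5.67% in steady and 8.10% in deepened bins. Every bin was weakened in 7 of them, among which were ROBO2 with 18 bins, the receptor phosphatase gene PTPRM with 10, and CLSTN2, GALNT17 and the transcription factor gene FOXP2 with 7 each. NRXN3, a presynaptic neurexin, had 17 of 18 bins weakened, GPC6 12 of 13, DLG2, a scaffold of the synapse, 15 of 23 and CDH13, or T-cadherin, 11 of 13. In 28 of the 66 genes another part of the body had moved from B to A, as in PDE4D, a cAMP phosphodiesterase gene with 8 weakened bins and 5 moved to A of 17, and in 2 a bin had deepened. Among the long genes often found at fragile sites, 4 of 25 started in weakened bins, GPC6 (5.65), THSD7A (4.68), PDE4D (3.85) and RBFOX1 (2.26). For RBFOX1, a neuronal splicing factor gene, 1 of 26 bins was weakened.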

How the data were processed

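TCC was measured in 6 T47D libraries, 1 per condition. According to the methods of the study, reads were aligned to hg19, the interchromosomal contact matrix was corrected and its first eigenvector was computed with HiCLib. The authors deposited 1 eigenvector score per 100 Kb bin and library. A score of 0 was taken as unscored. Scores are scaled within a library (the squared scores sum to about 1), which limits the comparison of sizes. The deposited scores come without contact counts, and the depth of the libraries is not known from them. Whether replicate cultures were pooled is not given in the sources used here.

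From the scores the members, their neighbours and runs were derived with Python 3.11.15, numpy 2.4.6 and pandas 2.3.3, after the steps were tested on simulated tracks. GC content, HindIII sites and promoters were taken from GRCh37, whose chromosome lengths match the bins, and genes from GENCODE 44 mapped to GRCh37. A gene belongs to the bin of its start. Genes were named by rule: those in the 6 longest runs (the first 5 of each), in the 10 bins of largest difference with a start, and the 4 with the largest difference of each of 15 gene lists. The members, lists and rules were chosen with earlier results of these data known, and genes named outside the rule (very long genes, other runs, domains) were chosen after their values were seen. Settings tried were other thresholds, references, scalings, bin sizes and distances. 1 gene that the rule names is not reported here.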

Additional observations from a re-analysis of the deposited data

Results flagged for a closer look

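Chromosome X was left out of the comparisons. There 107 of 792 bins that were B in all 6 libraries met the same rule, or 13.5% (95% Wilson interval 11.3 to 16.1%), against 15.9% on the autosomes. That interval is too narrow, since neighbouring bins are not independent, and does not measure the spread between chromosomes. Of the same 792 bins, 32 (4.04%) rose by more than 2 at T24 relative to T0, where 1.98% did on the autosomes. Among the 5 parental libraries, T24 had the narrowest spread over the weakened bins, an SD of 1.36 between bins, and stood apart from the other 4 by Dixon's criterion for 5 values. This was 1 of 6 checks, the highest and the lowest library on each of 3 measures of the members (median, interquartile range and SD), and the interquartile range of T24 did not pass. Chance flags about 1 in 20 such groups, and the 5 libraries are 5 conditions and not replicates.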

How the results depend on the processing

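The excess of GC content and the nearness to switched bins kept their direction under every alternative run. For the nearness this is not a separate check, since each run called members and switched bins from the same rise of TamR. The number of weakened bins was 3125 with a threshold of 1, 1023 with a threshold of 3 and 361 with bins of 500 Kb, and 1824 to 1915 with each parental library left out of the mean in turn. Dividing each library by its SD gave 1849 bins, all among the 1854, and mapping TamR onto the parental scores by rank gave 1830, of which 1713 were shared. The residual from a straight line took fewer, 1338 bins, all among the 1854 (72.2% of them). Against the highest parental score the number was 1366, and for bins below -1 in all 6 libraries 1470. Against T0 alone it was 1966, of which 1730 were shared. The share within 500 Kb of a bin moved from B to A was 32.5% and 51.4% with thresholds of 1 and 3 (4.08% and 7.90% of other B bins), 46.3% against the highest parental score, 37.7% after mapping by rank, 48.95% as the residual from a straight line, 32.7% for bins below -1 in all 6 libraries, 36.6% in 500 Kb bins, and 27.2% within 200 Kb (3.10% of other B bins). With a library left out it was 40.5 to 42.1%. The difference in gene starts per bin, 0.018, was within 0.1 of 0 throughout and was reversed at a threshold of 3 (-0.015) and without olfactory receptor genes (-0.019). It was 0.044 at a threshold of 1, 0.0081 against T0 alone, 0.0044 against the highest parental score, 0.034 per 100 Kb in 500 Kb bins, 0.034 with a gene counted in every bin it overlaps, 0.055 against bins that could pass, and 0.015 to 0.026 with a library left out. The share of olfactory receptor genes was 17.3% at a threshold of 3, where that of all genes was 8.31%, and 24.9% against the highest parental score, where it was 11.9%. Centring on chromosome arms, leaving out chromosome 17, where the share of weakened bins was highest, the limit to bins that could pass, the strata of parental score and the removal of olfactory receptors were chosen after the data were seen. The causes of these shifts were not tested. No paired analysis was possible because no condition has more than 1 library. The depth of the libraries is unknown, so no limit from depth can be given.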
